A study of Mus musculus with 6 samples.

Results

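Cpt1a, Acadm, Fabp2, Angptl4, Pdk4, Plin2, Ppara and Pparg are 8 genes of fatty acid handling and oxidation in the colon, chosen by name among 23462 genes that the arrays name. Every one of them was represented on the arrays, by 10 of 56605 probes, with 2 probes each for Plin2 and Ppara and 1 for each other gene. None of the 8 encodes an enzyme of ketone body synthesis, so genes of that pathway are described from a separate list further on. The samples were colons of 6 male mice, 3 controls and 3 with a knockout of Islr, each read on 1 single-colour Agilent array. Islr is a stromal gene whose secreted product carries leucine-rich repeats. The sample source states that animals of both genotypes drank 3.5% dextran sulfate sodium, which injures the colonic epithelium, for 5 days and then recovered for 1 day, whereas the treatment field states that nothing was given. The labels do not give the strain, the age, the allele or whether Islr was deleted in every cell.

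Long-chain fatty acids enter mitochondria as acylcarnitines, and fatty acids are shortened there step by step by beta-oxidation. In the colon the surface epithelium draws much of its energy from oxidising butyrate, a short-chain fatty acid. The peroxisome proliferator-activated receptors (PPARs) are nuclear receptors that bind fatty acids and derivatives, pair with retinoid X receptors and switch on genes of lipid transport, storage and oxidation. Angptl4, Pdk4, Plin2, Cpt1a and Acadm are widely used readouts of PPAR activity, and Pparg itself is abundant in colonic epithelium.

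The PPAR and retinoid X receptor pair recognises repeats of the core motif AGGTCA, so the 250 bases before each annotated gene start in RefSeq (GRCm38.p6) were searched for these letters on either strand. Start windows were present for 7 of the 8 genes; Angptl4 had no entry. Of their 9 windows 5 held the motif, belonging to 4 genes, and 14% of the 32851 windows of all genes held it. The search counted single copies and did not look for the repeat, and no window of these genes held more than 1 copy. The matches are shown to place the motif within the genes whose signals follow, with up to 10 bases on each side, in the direction of transcription and with the motif (TGACCT where it lies on the opposite strand) in capitals.
Acadm, chr3:153944877-153944893, minus strand: gTGACCTtcgggctccg
Cpt1a, chr19:3323197-3323222, plus strand: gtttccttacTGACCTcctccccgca
Plin2, chr4:86670262-86670287, minus strand: tcaggaccccTGACCTaagtcagaca
Pparg, first start, chr6:115361106-115361131, plus strand: ccgccgcctcAGGTCAgagtcgcccc
Pparg, second start, chr6:115362330-115362348, plus strand: ggacgcgaggAGGTCAaga
The matches began 249, 94, 218, 28 and 9 bases before the start in the order shown. A match of letters describes the sequence and is not evidence of binding. No match was found in the windows of Fabp2, Pdk4 and Ppara or at the other Pparg start.

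On the 6 arrays 69.4% to 75.4% of spots exceeded background clearly, and none was saturated. The 75th percentile of the signal was 6353 to 7110 intensity units in controls and 4910 to 5820 in knockouts; below, every signal is given as a multiple of its own array's 75th percentile, and differences are log2 values of that quantity in knockouts less those in controls. All arrays lay on 1 slide, controls in 1 row and knockouts in the other, so row and genotype cannot be told apart. Slide column 1 held control replicate 1 and knockout replicate 1, where the scanner software marked 13.6% and 16.0% of spots as outliers, against 3.26% to 9.05% on the other arrays. Islr served as a check of the labels: its signal was 2.97 (an outlier spot), 2.36 and 2.32 in controls and 0.379, 0.525 and 0.403 in knockouts, a difference of -2.44 (SE 0.21, adjusted p 0.0171 in limma). At a 5% false discovery rate in limma, the criterion for "rose" and "fell" throughout, 1403 of 35351 tested probes (3.97%) differed between genotypes, 2.42% lower and 1.55% higher in the knockout. In bulk tissue, fewer cells of a type and less RNA per cell cannot be told apart.

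Of the 8 genes, Angptl4 alone changed: it was 3.23-fold lower in the knockout colon. The other members showed no call in either direction. Pparg was 2.37-fold higher and did not pass, Plin2, Cpt1a and Ppara had differences above 0 that did not pass, from 0.32 to 1.05, and that of Pdk4 was -0.06. Of the 10 probes 8 could be tested, for 6 genes, and 1 probe was called; 6 of the 8 had a difference above 0. Acadm and Fabp2 lacked enough usable spots, and both can be described only with outlier spots kept, a fit in which 1 of 10 member probes was called, again Angptl4, against 4.85% of all probes.

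**Figure D1:**
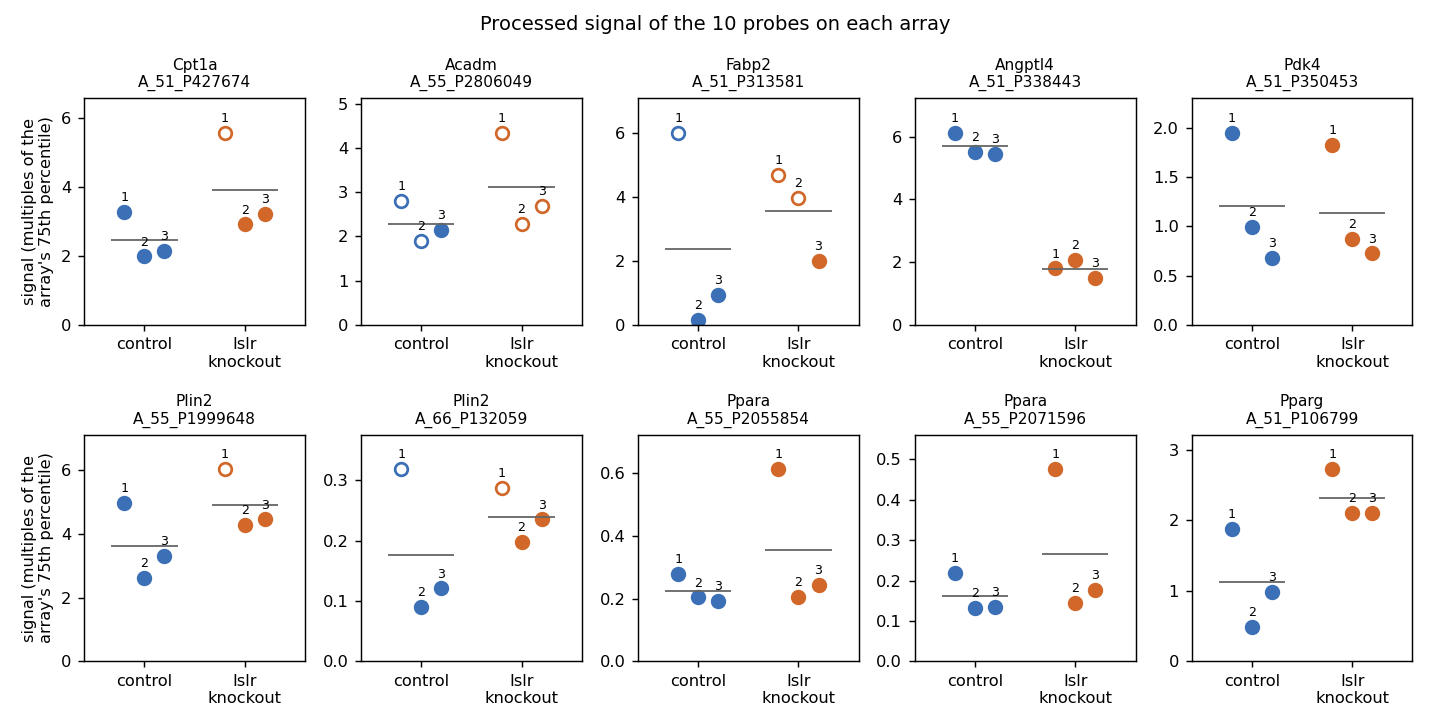
Signal of each of the 10 probes on each array, as a multiple of that array's 75th percentile (vertical axis, linear, from 0), for 3 controls and 3 Islr knockouts; digits are replicate numbers, open circles are outlier spots and grey lines are means of all 3 arrays. Angptl4 is at 5.47 to 6.14 in controls and at 1.49 to 2.06 in knockouts, and at each probe control replicate 1 is the highest control.

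Angptl4 encodes a secreted protein that inactivates lipoprotein lipase and so limits the release of fatty acids from circulating triglycerides. Its probe (A_51_P338443) read 6.14, 5.52 and 5.47 in the 3 controls, in replicate order here and below, against 1.80, 2.06 and 1.49 in the 3 knockouts. The 3 controls lay close together, and every knockout lay far below every control. On the log2 scale controls averaged 2.51 ± 0.093 and knockouts 0.82 ± 0.24 (SD, n = 3 each). The difference was -1.69 (SE 0.17, adjusted p 0.0171 in limma), lower in 3 of 3 knockouts; the exact two-sided permutation test gave p = 0.1, the smallest that 3 against 3 arrays allow. Among the 30240 probes with 6 usable values, 34.5% had groups that did not overlap, so the absence of overlap alone is common in these arrays; over all tested probes 26.8% had an unadjusted p under 0.05.

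The fall of Angptl4 was as large within slide columns: -1.77 between the arrays of column 1 and -1.89 between control replicate 2 and knockout replicate 3 in column 3. Without both arrays of column 1, an alternative chosen after seeing the data, it was -1.65. The call was lost when control replicate 2 (adjusted p 0.0633), control replicate 3 (0.0549) or knockout replicate 3 (0.0562) was left out, at differences of -1.71, -1.72 and -1.57. Over the 17 alternatives the difference lay between -1.83 and -1.57, and it was called in 13 of them, with adjusted p from 0.00486 to 0.128.

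**Figure D2:**
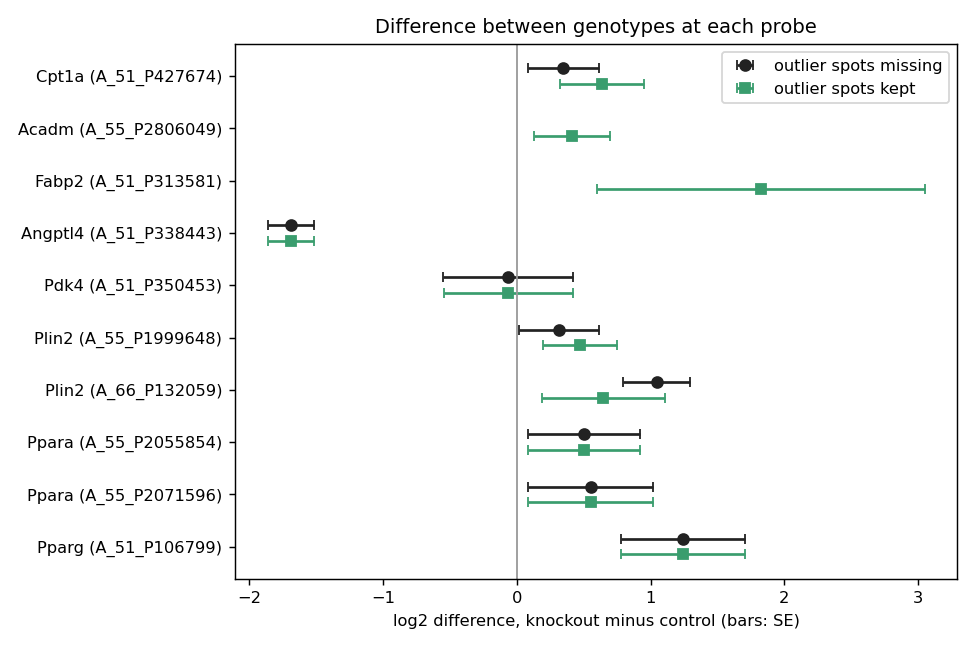
Log2 difference, knockout minus control, at each probe (horizontal axis) with its standard error (bars), from limma with outlier spots treated as missing (circles) and kept (squares). Angptl4 is at -1.69 in both fits, and Acadm and Fabp2 have a value only with outlier spots kept.

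Cpt1a encodes carnitine palmitoyltransferase 1a, which loads long-chain fatty acids onto carnitine at the outer mitochondrial membrane and sets the pace of their oxidation. Its signal was 3.26, 1.98 and 2.14 in controls and 5.57 (an outlier spot), 2.91 and 3.21 in knockouts. Control replicate 1 lay above the knockout replicates 2 and 3, so the groups overlapped. The difference was 0.35 (SE 0.27, adjusted p 0.449 in limma, n = 3 controls and 2 knockouts) and 0.64 (SE 0.31, adjusted p 0.243) with the outlier spot kept.

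Acadm encodes medium-chain acyl-CoA dehydrogenase, the first enzyme of each beta-oxidation round for medium-chain substrates. Its probe was bright on every array, but its spot was an outlier on 5 of 6 arrays, all except control replicate 3. With these spots kept the signal was 2.81, 1.90 and 2.14 in controls and 4.35, 2.29 and 2.69 in knockouts. Knockout replicate 1 stood above the rest and the other arrays of both genotypes ran together, with a difference of 0.41 (SE 0.28, adjusted p 0.389 in limma).

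Fabp2 encodes the intestinal fatty acid-binding protein, which carries fatty acids inside absorptive cells. It varied most among the members: the signal was 6.03 (an outlier spot), 0.151 and 0.933 in controls and 4.70 (an outlier spot), 3.97 (an outlier spot) and 2.01 in knockouts. Control replicates 2 and 3 were the lowest arrays, but control replicate 1 was the highest of all 6. With the outlier spots kept the difference was 1.82 with a standard error of 1.23 (adjusted p 0.378 in limma), and its sign differed between slide columns, at -0.36 in column 1 and 3.74 in column 3.

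Pdk4 encodes a kinase that shuts down pyruvate dehydrogenase and so turns cells from glucose to fatty acids as fuel. Its signal was 1.96, 0.991 and 0.680 in controls and 1.83, 0.869 and 0.726 in knockouts. In each genotype the highest array was the one in slide column 1, and the remaining arrays overlapped. The difference was -0.06 (SE 0.49, adjusted p 0.946 in limma), and it turned positive when control replicate 1 (0.35), knockout replicate 2 (0.07) or knockout replicate 3 (0.20) was left out.

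Plin2 encodes perilipin 2, a coat protein of lipid droplets that accumulates with stored triglyceride. Its brighter probe (A_55_P1999648) read 4.98, 2.62 and 3.32 in controls and 6.04 (an outlier spot), 4.28 and 4.46 in knockouts. The knockouts lay above control replicates 2 and 3, while control replicate 1 exceeded knockout replicates 2 and 3, and the difference was 0.32 (SE 0.30, adjusted p 0.544 in limma, n = 3 controls and 2 knockouts). The dimmer probe (A_66_P132059) read 0.318 (an outlier spot), 0.0903 and 0.121 in controls and 0.287 (an outlier spot), 0.198 and 0.235 in knockouts. With the outlier spots missing it was 1.05 higher in knockouts (SE 0.25, adjusted p 0.0869, n = 2 each), and with them kept 0.65 (SE 0.46, adjusted p 0.401). With array weights this probe was called (1.14, adjusted p 0.0234); its adjusted p ran from 0.0234 to 0.401 over 13 alternatives.

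Ppara encodes PPAR alpha, the receptor best known for driving fatty acid oxidation in liver and other oxidative tissues. Its brighter probe (A_55_P2055854) read 0.279, 0.204 and 0.193 in controls and 0.613, 0.207 and 0.245 in knockouts. Knockout replicate 1 alone was high, and the other knockouts fell within the range of the controls. The differences were 0.50 (SE 0.42, adjusted p 0.482 in limma) and 0.55 (SE 0.47, adjusted p 0.487) at the 2 probes, and 0.02 and 0.03 without knockout replicate 1. The second probe (A_55_P2071596) was also highest in knockout replicate 1, at 0.132 to 0.219 in controls and 0.146 to 0.475 in knockouts.

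Pparg encodes PPAR gamma, the receptor of fat cell differentiation that is also prominent in mature colonic epithelium. Its signal was 1.88, 0.490 and 0.990 in controls and 2.72, 2.10 and 2.11 in knockouts. Every knockout lay above every control, but control replicate 1 was close to the knockouts and the controls spread nearly 4-fold. On the log2 scale controls averaged -0.04 ± 0.97 and knockouts 1.20 ± 0.22 (SD, n = 3 each). The difference was 1.24 (SE 0.46, adjusted p 0.148 in limma; exact permutation p = 0.1, the smallest possible), higher in 3 of 3 knockouts. Pparg was called without control replicate 1 (1.72, adjusted p 0.0461) and with array weights (1.75, adjusted p 0.0238), and not in the other 15 alternatives. Its difference was 0.75 without control replicate 2.

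The members shared an ordering of arrays that crossed the genotypes. With outlier spots kept, 10 of 10 member probes were highest on an array of slide column 1. Of the 40172 probes tested in that way 38.8% were. For Cpt1a, Acadm, Fabp2 and each Plin2 probe this highest spot was itself an outlier spot. Control replicate 1 was the highest control at 10 of 10 probes (32.1% of all probes) and knockout replicate 1 the highest knockout at 9 of 10 (34.3%), with Angptl4 as the exception. Control replicate 2 was the lowest of all 6 arrays at 7 of 10 probes, against 19% of all probes. Members were chosen by name and share the same 6 libraries, so these counts only describe these probes on these arrays.

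Mature colonocytes, the surface epithelial cells that absorb and oxidise butyrate, were followed through their markers. Of 12 markers 11 were on the arrays, each well above background on all 6, and their summed signal was 68.6, 25.1 and 47.4 in controls and 110, 80.7 and 80.6 in knockouts. All 11 were higher in the knockout, with a median difference of 1.26 and 0 calls in limma, where 4 had an unadjusted p under 0.05. Among 16451 genes, each at its brightest tested probe, 28.2% had such a p-value and 48.8% had a difference below 0. These shares are the background for the marker and gene lists below as well. The median was 0.66 without control replicate 2, and 3 markers were called without control replicate 1, 1 without both arrays of slide column 1 and 7 with array weights. Over all probes these fits called 2114, 1388 and 8119, against 1403 with all arrays and no weights. Marker counts below from the same fits stand beside these totals. Pparg ran from control replicate 2 through 3 and 1 to the knockouts in the same sequence, apart from knockout replicates 2 and 3, which were nearly equal in both. Angptl4 was lower in every knockout, where the colonocyte sum was higher, and Angptl4 was nearly level among controls. The part of these cells in the differences of Pparg, Fabp2, Cpt1a and Angptl4 was not tested.

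**Figure D3:**
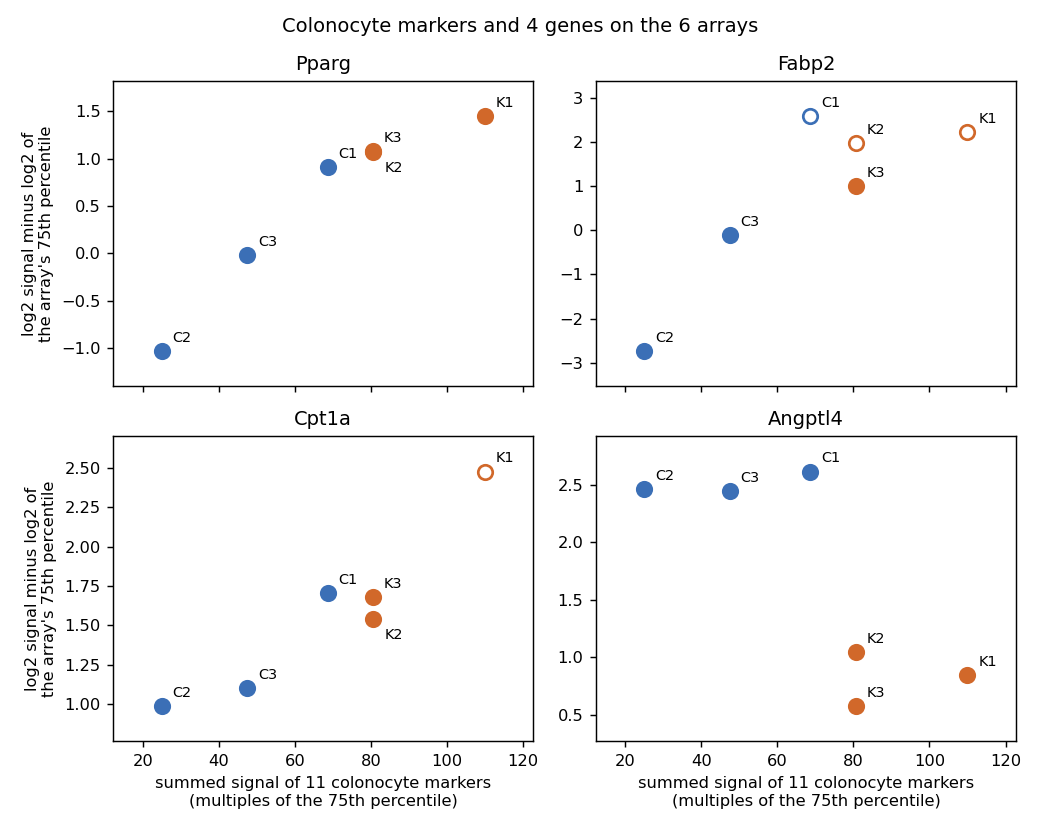
Log2 of the multiple of the 75th percentile for Pparg, Fabp2, Cpt1a and Angptl4 (vertical axes) against the summed signal of 11 colonocyte markers (horizontal axis) on each array; C and K are controls and knockouts with their replicate number, and open circles are outlier spots. Pparg climbs with the markers from control replicate 2 to knockout replicate 1, whereas Angptl4 is level among controls whose markers run from 25.1 to 68.6.

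Most markers of leukocytes and fibroblasts differed in the direction of Angptl4. The summed signal of 10 neutrophil markers was 36.5 to 41.3 in controls and 28.5 to 30.0 in knockouts. Of 9 tested markers 7 were called lower and 2 were above 0, at most 0.18, with a median difference of -1.93. With outlier spots kept, as in the sum, 3 of 10 were above 0, at most 0.78. No neutrophil marker was called in limma with control replicate 2, control replicate 3 or knockout replicate 3 left out or with slide column as a block (the column block), and 3 were called without knockout replicate 1, while the median stayed between -2.05 and -1.73 without single arrays. The summed signal of 10 fibroblast markers, Islr among them, was 43.0 to 51.0 in controls and 25.0 to 34.7 in knockouts. Of 9 tested, 2 were called lower, Islr and Pdgfrb. The count was 0 without control replicate 2, control replicate 3 or knockout replicate 3 and with the column block. With any other array left out it was 1. The summed signal of 10 macrophage markers was 16.8 to 26.6 in controls and 9.94 to 15.5 in knockouts. In limma 8 of 8 tested markers were lower and 0 called, 5 of them at an unadjusted p under 0.05. The part of these cells in the fall of Angptl4 was not tested.

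Adipocyte markers summed highest on control replicate 1 and lowest on knockout replicate 1, the arrays of slide column 1. Their summed signal (9 genes) was 29.9, 7.82 and 8.34 in controls and 5.96, 13.7 and 13.2 in knockouts. Over 8 tested genes the median difference was 0.22 with 0 calls. Without both arrays of slide column 1 it was 1.19 with 5 calls, and without control replicate 1 it was 1.44 with 1 call. Without control replicate 2 it was -0.61 with 0 calls, and with array weights 1.52 with 3 calls. Adipoq, the fat cell hormone adiponectin, read 4.57 in control replicate 1, 0.0581 and 0.0305 in the other controls and 0.0338, 0.646 and 0.729 in knockouts. On the same arrays Angptl4 read 6.14, 5.52 and 5.47 in controls and 1.80, 2.06 and 1.49 in knockouts. What part fat tissue had in its difference was not tested. Of 12 skeletal muscle markers 2 were called, both higher in the knockout (1 without control replicate 3 or knockout replicate 3, 0 with the column block, 5 with array weights), and the summed signal was small in both genotypes (2.60 to 3.22 in controls, 2.79 to 5.18 in knockouts). Smooth muscle markers summed to 54.8 to 67.5 in controls and 73.9 to 85.8 in knockouts, with 8 of 8 tested genes higher and 0 called, 2 of them at an unadjusted p under 0.05. Small intestinal enterocyte markers summed to 0.404 to 0.784 in controls and 0.990 to 2.83 in knockouts without overlap, with 6 of 8 tested genes higher, a median of 1.01 and 0 called, 3 of them at an unadjusted p under 0.05. Their part in the Fabp2 difference was not tested.

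Related genes were read from lists, in which the brightest tested probe stood for a gene. Over all 16451 genes so tested 3.82% were called (2.47% lower, 1.35% higher) and the median difference was 0.01. With array weights 8119 of all 35351 tested probes were called, against 1403 without weights. List counts with array weights therefore stand beside a larger background. In the list of angiopoietin-like proteins with lipoprotein lipase and its partners, 10 of 10 genes were tested and only Angptl4 was called. Calls in this list numbered 4 with array weights and 3 without both arrays of slide column 1. They numbered 0 with the column block and 0 to 2 without single arrays. Angptl2 was well above background on all control arrays and on no knockout array, at least 1.5-fold higher in controls (adjusted p 0.123). Angptl7 had the opposite sign: it read 0.590, 0.173 and 0.0747 in controls against 1.58, 2.85 and 1.39 in knockouts, a difference of 3.23 (SE 0.73) that did not pass (adjusted p 0.0586). Lpl, the lipase that Angptl4 inhibits, read 4.21 (an outlier spot), 0.462 and 0.472 in controls and 0.195, 0.503 and 0.469 in knockouts. That high value came from the array with the most Adipoq, and Lpl differed by -0.38 (SE 0.44, adjusted p 0.621 in limma).

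In the list of lipid droplet and lipolysis genes 16 of 17 were tested, with a median difference of -0.04 and 1 call. With array weights 5 genes of this list were called, and 0 in each fit with an array left out. Hilpda, a lipid droplet protein that inhibits adipose triglyceride lipase, fell: its signal was 0.877, 0.522 and 0.564 in controls and 0.178, 0.275 and 0.288 in knockouts, a 2.63-fold lower level (difference -1.40, SE 0.28, adjusted p 0.0488 in limma). G0s2, another inhibitor of that lipase, read 0.791, 0.440 and 0.453 in controls and 0.156, 0.232 and 0.246 in knockouts, and just missed the threshold (-1.38, SE 0.30, adjusted p 0.0541). Lipe, hormone-sensitive lipase, was 1.16 lower on the same scale (SE 0.27, adjusted p 0.0633). At the high end Cideb, a droplet protein of lipoprotein-secreting cells, was at 1.77 (adjusted p 0.118 in limma). Its other probe gave 0.70 (SE 0.17, adjusted p 0.0668). For Hilpda, G0s2 and Lipe the groups did not overlap, and the contrast was wider in slide column 1 (-2.30 for Hilpda) than in column 3 (-0.86). Lipe is also one of the adipocyte markers, whose sum in column 1 was 29.9 in the control and 5.96 in the knockout. The part of fat tissue in these differences was not tested. The call of Hilpda was lost in each of the 6 fits with an array left out (adjusted p 0.0556 to 0.111). It was called in 9 of 17 alternatives, over which its adjusted p was 0.0153 to 0.180. Its difference was -0.95 without both arrays of slide column 1.

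**Figure D4:**
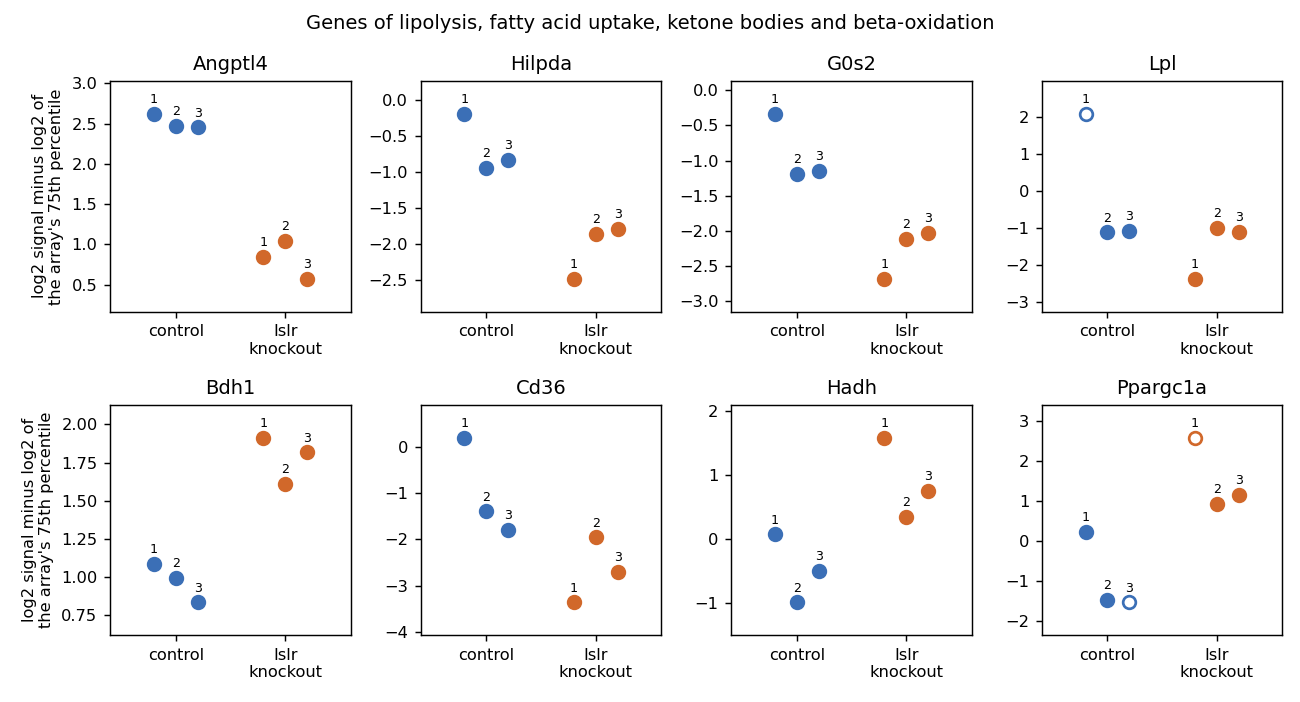
Log2 of the multiple of the 75th percentile (vertical axes, scaled for each gene) of 8 genes on each array; digits are replicate numbers and open circles are outlier spots. Angptl4, Hilpda and G0s2 are lower in every knockout than in any control, Bdh1 is higher in every knockout, and Lpl overlaps between genotypes.

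Ketone bodies are made from acetyl-CoA in mitochondria, and Bdh1 interconverts acetoacetate and beta-hydroxybutyrate. Of 8 genes of this list 7 were tested, 6 of them higher, with a median difference of 0.43 and 1 call. The count was 5 with array weights and 0 or 1 in each fit with an array left out. Bdh1 rose from 2.12, 1.99 and 1.78 in controls to 3.77, 3.05 and 3.52 in knockouts, with no overlap. The difference was 0.81 (SE 0.16, adjusted p 0.0468 in limma), a 1.75-fold higher level, and its other probe gave 0.75 (adjusted p 0.0600). It was 0.83 within slide column 1 and 0.82 within column 3, but the call was lost in each of the 6 fits with an array left out (adjusted p 0.0502 to 0.147). Bdh1 was called in 7 of 17 alternatives. The call was also lost with median centring (adjusted p 0.0614), without the filter on dim probes (0.0685) and with the column block (0.159). Slc16a6, a transporter that exports ketone bodies, was 0.76 lower (SE 0.25, adjusted p 0.114).

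Of 27 genes of mitochondrial beta-oxidation 23 were tested, and 21 had a difference above 0, the median being 0.38 and the extremes -1.08 and 1.37. None was called in limma, where 6 had an unadjusted p under 0.05, against 28.2% over all genes. The count was 0 or 1 in each fit with an array left out, and 8 with array weights. It was 1 with outlier spots kept, quantile normalization, either normexp fit or the value table, and 1 without both arrays of slide column 1. The highest was Hadh, a dehydrogenase of short-chain acyl-CoA oxidation, at 0.500 to 1.05 in controls and 1.27 to 2.99 in knockouts (difference 1.37, SE 0.39, adjusted p 0.0893). Slc25a20, the carrier that brings acylcarnitines across the inner membrane, was 1.29 higher (SE 0.59, adjusted p 0.227) and Acads, the short-chain dehydrogenase, 1.05 higher (SE 0.34, adjusted p 0.111). The lowest was Acsl4, which activates arachidonic acid more than fuel fatty acids, at -1.08 (SE 0.21, adjusted p 0.0649). With outlier spots kept Acsl4 was at -1.22 and was the gene of this list called lower. Its dimmer probe was called lower (-2.56, SE 0.36, adjusted p 0.0298), a probe chosen after its value was seen. The summed signal of the list was 56.5 to 79.2 in controls and 72.8 to 106 in knockouts, overlapping through control replicate 1.

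Peroxisomal oxidation gave a like picture, with 10 of 13 tested genes higher, a median of 0.27 and 0 calls. In limma 5 of these genes had an unadjusted p under 0.05, against 28.2% of all genes. With array weights 5 genes were called. The largest difference was that of Pex11a, at 1.02 (SE 0.32, adjusted p 0.109). The PPAR receptors and coregulators had a median of 0.21 over 11 tested genes and 0 calls. In limma 5 of them had an unadjusted p under 0.05. With array weights 3 were called, and 0 or 1 in each fit with an array left out. Ppargc1a, a coactivator of mitochondrial genes, read 1.16, 0.357 and 0.342 (an outlier spot) in controls. In knockouts it read 5.97 (an outlier spot), 1.89 and 2.20 (difference 1.66, SE 0.60, adjusted p 0.168 in limma). Ppard, the third PPAR, was 0.94 higher (SE 0.29, adjusted p 0.117).

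**Figure D5:**
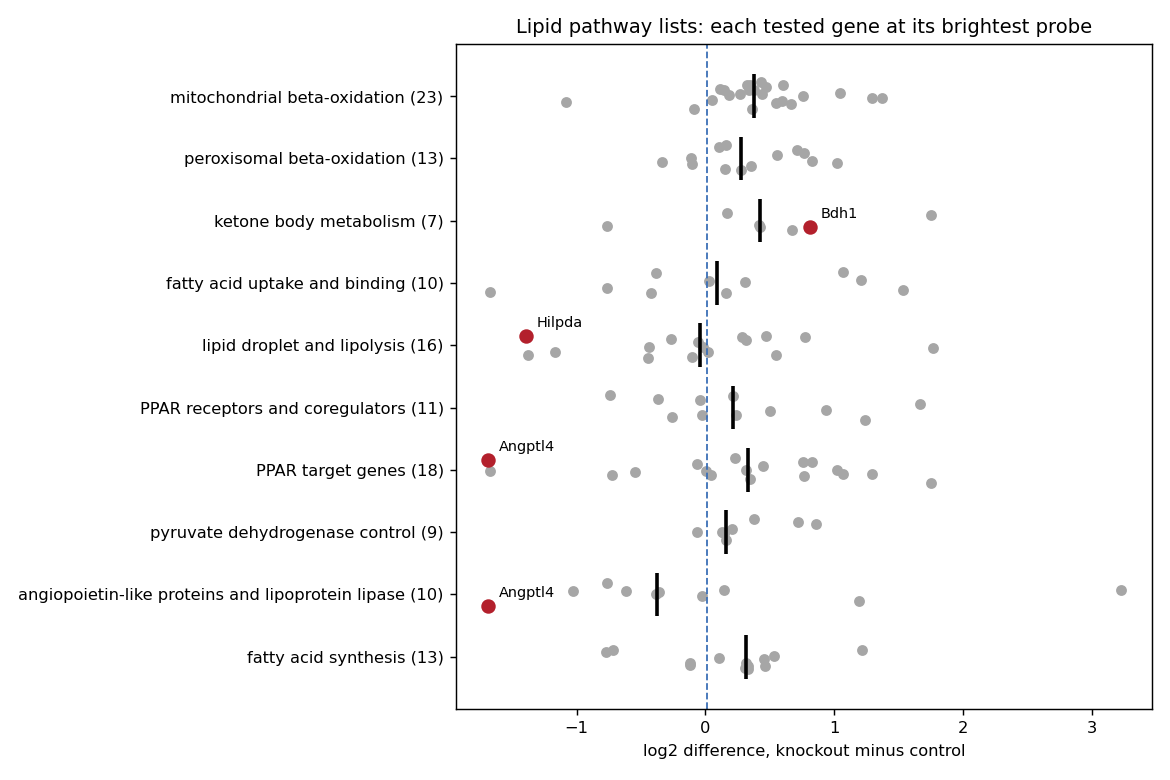
Log2 difference, knockout minus control, of every tested gene at its brightest probe (points) in 10 lists of lipid metabolism, with the number of tested genes in brackets. Black bars are list medians, the dashed line is the median of all genes at 0.01, and red points are the genes called in limma, which are Angptl4, Hilpda and Bdh1.

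Across 24 PPAR target genes, 6 of the 8 members among them, 18 were tested with a median of 0.33, and Angptl4 was the only call. Leaving out control replicate 2 gave a median of 0.12 and leaving out control replicate 1 gave 0.57; calls numbered 0 without control replicate 2, control replicate 3 or knockout replicate 3 and with the column block, 3 without control replicate 1 or both arrays of slide column 1, and 7 with array weights. Cd36, a fatty acid receptor and scavenger receptor, stood beside Angptl4 at the low end: its signal was 1.14, 0.380 and 0.287 in controls and 0.0975, 0.258 and 0.153 in knockouts (difference -1.67, SE 0.58, adjusted p 0.129 in limma). The Cd36 contrast was -3.55 in slide column 1 and -1.31 in column 3, and the part of fat tissue in it was not tested. Slc25a20 and Pex11a were at 1.29 and 1.02, and the members Plin2, Cpt1a and Pdk4 lay between these and Cd36. Targets of the same receptors thus had values on both sides of 0.

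The list of fatty acid uptake and binding genes, with Fabp2 and Cd36, had 10 tested genes, a median of 0.09 and 0 calls, with 4 genes at an unadjusted p under 0.05. In this list 1 gene was called with median centring, array weights, the value table or normexp with 75th percentile scaling. Slc27a2, a fatty acid transporter, was the highest at 1.54 (SE 0.34, adjusted p 0.0573). The pyruvate dehydrogenase list around Pdk4 had 9 tested genes, 8 of them higher, with a median of 0.16, 0 calls and 0 genes at an unadjusted p under 0.05. Fatty acid synthesis had 13 tested genes with a median of 0.31 and 0 calls, 3 at an unadjusted p under 0.05. The count was 2 with quantile normalization, either normexp fit or array weights. Its desaturases took opposite signs, Fads2 at 1.21 (SE 0.27) and Fads1 at -0.77 (SE 0.17), both with an adjusted p of 0.0568 in limma. The other Fads2 probe was at only 0.32 (SE 0.33, adjusted p 0.571).

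The genes whose profile over the 6 arrays lay nearest to a member, each centred on its own mean, were sought among 13680 genes with 6 usable values. For Angptl4 they were Slc39a14 and Pdgfd, at root mean square distances of 0.13 and 0.14 on the log2 scale. For Pparg they were Mgst3 (0.081) and Cdc42ep5 (0.090), for Ppara Sfxn5 (0.081) and Hsbp1l1 (0.11), and for Pdk4 Tmem267 (0.12) and Wdr41 (0.18). The other members lacked a usable value on at least 1 array.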

How the data were processed

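Spots carry a deposited linear intensity, the processed signal, which Agilent Feature Extraction 11.5.1.1 had background-subtracted and detrended, per the file headers, with arrays left unscaled. The submitters' processing notes name version 10.7. The labels name Cy3 and a green signal, but the files hold the red channel, which was used. The deposited value table, also an intensity, matched each array's processed signal (log2 correlation of at least 0.999999) and served as an alternative.

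Non-control spots (59305 per array) were log2-transformed, less the 75th percentile of their array. Spots marked non-uniform or population outlier were set to missing, which removed 12 of the 60 member spots, 8 of them on slide column 1. Repeated spots were averaged. A probe was tested when well above background on all arrays of 1 genotype with at least 2 usable values in each. Genotypes were compared in limma 3.58.1 (R 4.3.3; lmFit, then eBayes), by a two-sided test, genotype as the only term, with Benjamini-Hochberg adjustment over all tested probes at 5%. On simulated data for this comparison (35351 probes, 200 changed) 10% of changes of size 1 on the log2 scale, 68% of size 2 and 82% of size 3 were recovered, with 5 false calls among 127.

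Probes were named through RefSeq accessions in GRCm38.p6 (33767 of 56605 probes). The files place probes on mm9, so no probe coordinates are given. Members and gene lists were chosen with earlier results of these data known. Beside members and Islr, the text names list genes that were called, list extremes, genes with a difference over 1 and no overlap, and nearest profiles; Lpl, Ppard, Adipoq, Pdgfrb and the dimmer Acsl4 probe fall outside this rule and were added after their values were seen. Some genes of the lists are not reported here by name. Nothing in the labels says how animals were drawn, so p-values measure the spread between these samples. Alternatives covered normalization, background correction, outlier spots, the filter on dim probes, array weights, the value table and each array left out; 3 were added after seeing the data.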

Additional observations from a re-analysis of the deposited data

How the results depend on the processing

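Angptl4 kept its direction in all 17 alternatives; with slide column as a block, which leaves 1 residual degree of freedom, it was -1.83 and not called, and without single arrays it was -1.80 to -1.57. Pdk4 changed sign without single arrays (-0.46 to 0.35). Pparg ran from 0.75 to 1.72 without single arrays and was called with array weights (1.75), as was the dimmer Plin2 probe (1.14). The number of called member probes was 3 with array weights, 0 with the column block and 0 to 2 without single arrays. The number of all called probes was 2185 with quantile normalization, 2249 with median centring, 2773 and 2558 with normexp followed by quantile or 75th percentile scaling, 484 without the filter on dim probes, 8119 with array weights, 2274 from the value table, 0 with the column block and 40 to 2114 without single arrays. Cpt1a, the brighter Plin2 probe and both Ppara probes kept their sign wherever they could be tested.

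Among list medians, fatty acid synthesis was 0.20 with quantile normalization, 0.19 with normexp and quantile, 0.012 with outlier spots kept, 0.039 from the value table, 0.41 with the column block and 0.16 to 0.33 without single arrays. PPAR receptors and coregulators were at 0.017 with the mean of a gene's probes and -0.026 to 0.22 without single arrays, and fatty acid uptake and binding at -0.18 with signals above background on all arrays. Fibroblast markers were at -0.38 with array weights, -0.35 without column 1 and -0.90 to -0.42 without single arrays, skeletal muscle markers at 0.37, 0.48 and -0.036 to 0.37, and smooth muscle markers at 0.22 with normexp and quantile. The causes of these shifts were not tested. The planned normexp correction on mean signals was not run; median signals were used in its place. No paired analysis was possible because replicate numbers only name the arrays and the labels match no animals across genotypes; the column block groups arrays by slide position. With 3 arrays per group, changes of about 2-fold were seldom recovered in the simulation. Members without a call may still differ by that amount. The simulation changed 200 probes and drew noise independently for each probe, while 1403 probes were called here. Recovery in these data may therefore differ from it.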
